A study of Mus musculus with 16 samples.

Results

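Transcripts of 10 regulators of mitochondrial biogenesis were followed in mouse cortical neurons that expressed wild-type or mutant huntingtin exon 1, with or without knockdown of Twist1. The regulators were chosen by gene symbol and not by a rule on their levels, though with earlier results of these data known. They are 10 of the 41388 genes listed. They comprise the coactivators Ppargc1a (PGC-1alpha), Ppargc1b (PGC-1beta) and Pprc1 (PRC), the transcription factors Esrra (ERRalpha), Nrf1 and Ppara (PPARalpha), and the mitochondrial transcription genes Tfam, Tfb1m, Tfb2m and Polrmt. All 10 had counts in every library and passed the filter on low counts.

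PGC-1 coactivators do not bind DNA themselves. They are recruited by nuclear receptors such as ERRalpha and PPARalpha and by the nuclear respiratory factors, and so raise transcription of nuclear genes for the respiratory chain, fatty acid oxidation and mitochondrial DNA maintenance. Among the targets is TFAM, which packages mitochondrial DNA and, with TFB2M and the polymerase POLRMT, starts its transcription. Repression of PGC-1alpha by mutant huntingtin has been described in striatal neurons and Huntington disease tissue, which is the question that the wild-type and mutant groups address for these genes.

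The neurons came from the cortex of Swiss Webster embryos at embryonic day 16 and were grown in culture. Every group received 2 lentiviruses on day 5 in vitro, 1 with Htt exon 1 and 1 with an shRNA (a hairpin that directs RNA interference), and cells were harvested on day 10, so that no group was free of virus or of transgenic Htt. The 25Q control group carried exon 1 with 25 glutamines and a luciferase shRNA, and the 72Q control group carried 72 glutamines and the same shRNA. The groups 72Q shRNA 1 and 72Q shRNA 2 carried 72 glutamines and 1 of 2 hairpins against Twist1, a transcription factor of the bHLH class. Each group had n = 4 libraries, 1 per experiment label. The labels exp109a and exp109b share a number, and they do not state whether these are parts of 1 experiment. They are counted as separate experiments here. Values below are listed in the order exp107, exp108, exp109a and exp109b. Neither the promoter of the transgene nor the share of transduced neurons is given in the sources used. The labels do not state that replicates are separate cultures, beyond naming the experiments, and a p-value then reflects only the spread among these libraries.

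Total counts were 15814525 to 19533034 per library. Twist1 was at 0 to 0.55 CPM (counts scaled to library size) in the 25Q control group and at 3.29 to 5.08 CPM in the 72Q control group, and at 0.904 to 1.87 and 1.29 to 2.19 CPM with shRNA 1 and shRNA 2, so knockdown was partial with both hairpins. All 8 neuronal markers were present, with a summed level of 6350 to 7350 CPM in 25Q against 4370 to 5220 in the 72Q control group, 4770 to 5410 with shRNA 1 and 4160 to 4870 with shRNA 2. All 8 astrocyte markers were also present, at 2460 to 2690, 2580 to 2980, 2730 to 2950 and 2120 to 2690 CPM in the same order, and all 8 oligodendrocyte-lineage markers at 1020 to 1150, 1060 to 1190, 873 to 974 and 750 to 869 CPM. Dividing progenitor markers (6 genes) summed to 164 to 238, 198 to 270, 202 to 243 and 158 to 209 CPM. Summed microglial markers (7 genes) were low throughout, but higher with shRNA 2 (12.8 to 13.2 CPM) than in the other groups (7.01 to 10.1 CPM). Vascular and meningeal markers (8 genes) were at 10.7 to 29.7 CPM over all groups. The cultures thus held transcripts of glia and dividing cells beside those of neurons. Because the marker sums move with the groups, and in bulk RNA fewer cells of a type and less RNA per cell cannot be told apart, the part of cell composition in each difference below was not tested.

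Across the 16 libraries, Esrra, Tfam, Polrmt and Ppargc1a were the most abundant of the regulators per unit of length, with mean levels of 10.8, 8.04, 6.52 and 5.86 RPKM (CPM per kilobase of listed gene length). Ppargc1b followed at 3.13 RPKM. Tfb1m, Pprc1 and Nrf1 lay close together at 2.5, 2.46 and 2.37 RPKM. Their ranges overlapped in most groups, but in 25Q Tfb1m (1.99 to 2.36 RPKM) was below Nrf1 (2.37 to 2.5 RPKM), and with shRNA 1 Pprc1 (1.63 to 2.13 RPKM) was below Tfb1m (2.16 to 2.97 RPKM). Tfb2m was at 1.21 RPKM, and Ppara was the lowest at 0.393 RPKM, from 15 to 43 counts per library. Group means of a single regulator differed by at most 1.52-fold, the value of Pprc1, and by as little as 1.15-fold for Polrmt.

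**Figure D1:**
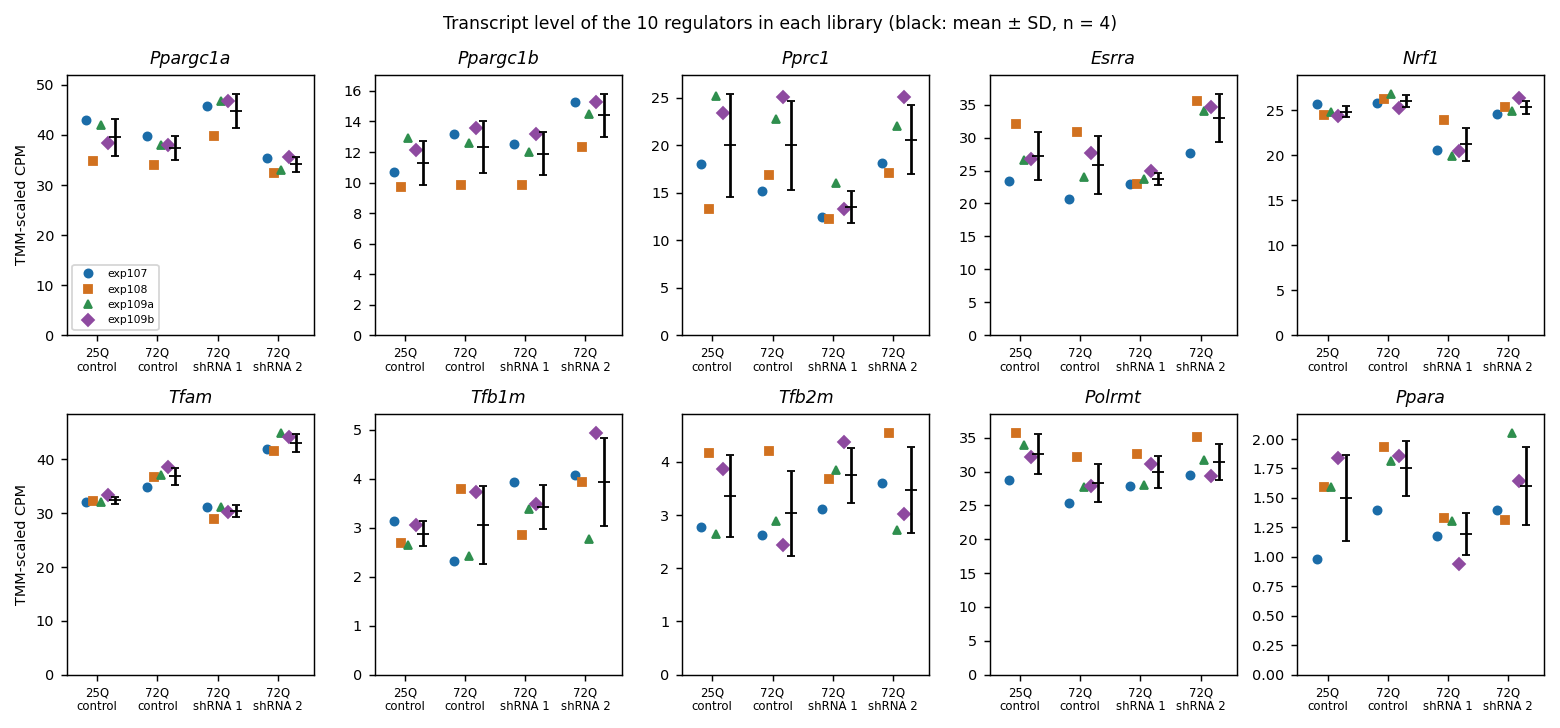
TMM-scaled CPM (y axis, from 0) of each regulator in each library, by group (x axis), with the experiment shown by colour and symbol and black bars giving the group mean ± SD (n = 4). Pprc1 and Tfam were lower with shRNA 1 than with shRNA 2 in all libraries, and Ppargc1a was higher.

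Few of the regulators were called between mutant and wild-type huntingtin. With each Twist1 hairpin about as many were called as the shares of all genes give, and not the same way. Between 72Q and 25Q with the control shRNA, 1 of the 10 rose (Tfam) and 1 fell (Polrmt), at an adjusted p under 0.05 (edgeR quasi-likelihood, Benjamini-Hochberg over 15103 genes). In the same comparison 29.3% of all tested genes rose and 27.8% fell, and 1 of 10 in each direction is below these shares. Without scaling beyond library totals 3 of the 10 rose and 0 fell, since Ppargc1b (0.25, adjusted p = 0.0104) and Nrf1 (0.20, adjusted p = 0.00815) joined Tfam and Polrmt was not called. The median of all genes was itself 0.163 in that setting. With shRNA 1 against the 72Q control, 1 rose (Ppargc1a) and 4 fell (Pprc1, Nrf1, Tfam and Ppara), where 22.7% of all genes rose and 23.6% fell. With shRNA 2 against the same control, 4 rose (Ppargc1b, Esrra, Tfam and Polrmt) and 0 fell, where 20.2% of all genes rose and 21.5% fell. Taken over both directions, the number called with each hairpin was near what the shares of all genes give for 10 genes. At an unadjusted p under 0.05, 1 of the regulators was lower with shRNA 2, namely Ppargc1a, and DESeq2 likewise called 0 of them lower.

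The direct comparison sets the hairpins against each other and not against a control library, though the spread was estimated over all 16 libraries. In this comparison 1 regulator was higher with shRNA 1 (Ppargc1a) and 5 were lower (Ppargc1b, Pprc1, Esrra, Nrf1 and Tfam), where 27.3% of all genes were higher and 25.9% lower. For 5 of the 10 regulators the shRNA 1 and shRNA 2 libraries did not overlap, as was so for 33.2% of all tested genes. For 72Q and 25Q this held for 1 of the 10, against 38.3% of all genes. Against the 72Q control it held for 4 of 10 with shRNA 1 (29.0% of all genes) and 1 of 10 with shRNA 2 (22.4%). Of those 4, Ppargc1a was apart from the control by less than the digits printed below. The median log2 fold change of the 10 was 0.039 for 72Q against 25Q, -0.085 with shRNA 1, 0.17 with shRNA 2 and -0.26 for shRNA 1 against shRNA 2. Over all tested genes the medians were 0.030, -0.005, 0.002 and 0.005. The comparisons of each hairpin with the control, and of 72Q with 25Q, share the 72Q control libraries, and their values are given side by side only.

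**Figure D2:**
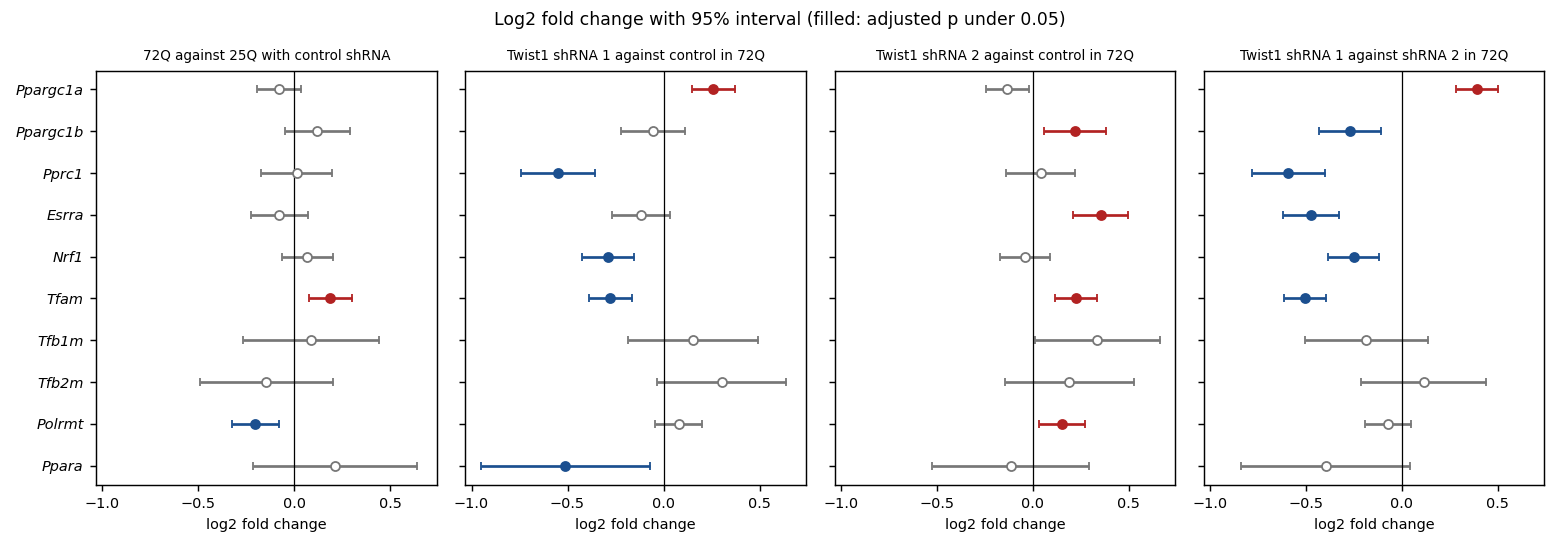
Log2 fold change (x axis) of each regulator (y axis) in 4 comparisons, with 95% intervals from the edgeR fit, where filled points have an adjusted p under 0.05 (red higher, blue lower) and open points do not. Tfam is higher in 72Q, lower with shRNA 1 and higher with shRNA 2. In the comparison of the hairpins 6 of 10 points are filled, where 27.3% of all genes were higher and 25.9% lower.

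Ppargc1a encodes PGC-1alpha, the inducible coactivator of the family (ENSMUSG00000029167, GRCm38 chr5:51454249-51567725, minus strand). Its proximal promoter is shown because the gene differed between the hairpins, in a study of a bHLH factor, a class that binds E-boxes with the letters CANNTG. The window is chr5:51567731-51567975 of GRCm38.p6, minus strand, covering bases 250 to 6 before the RefSeq start, and capitals mark E-boxes and a part of the cAMP response element (CRE), TGACG, read here on the opposite strand.
Ppargc1a: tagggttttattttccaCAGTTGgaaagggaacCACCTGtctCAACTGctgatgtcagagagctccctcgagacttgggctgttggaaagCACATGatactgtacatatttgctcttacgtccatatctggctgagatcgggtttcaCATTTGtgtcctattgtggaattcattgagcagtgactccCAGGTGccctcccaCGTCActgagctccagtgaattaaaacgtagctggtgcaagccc
It holds 6 E-boxes and 1 match to the CRE part. Of 32851 RefSeq promoter windows, each searched over 250 bases, 0.274% hold at least 6 E-boxes, with a median of 1. None of the 6 reads CATATG, the E-box variant searched for Twist1, which 3.46% of windows hold. Letters that match are a description and show no binding.

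Levels of Ppargc1a were 43.0, 34.8, 41.9 and 38.4 CPM in the 25Q control group and 39.7, 33.9, 37.9 and 37.9 CPM in the 72Q control group. With shRNA 1 they were 45.8, 39.7, 46.8 and 46.7 CPM, and with shRNA 2 they were 35.4, 32.4, 33.0 and 35.5 CPM. The 25Q and 72Q control libraries thus overlapped, and exp108 was the lowest library in each group. The lowest shRNA 1 library (exp108) and the highest 72Q control library (exp107) were both at 39.7 CPM, so these groups were apart only beyond the printed digits. Ppargc1a was -0.081 ± 0.055 log2 units from 25Q in the 72Q control group (95% interval -0.194 to 0.032, adjusted p = 0.214), and 72Q was lower in all 4 experiments, with differences of -0.146 to -0.016. Without scaling beyond library totals the sign turned, to 0.054, because the median of all genes moved with the scaling. That median was 0.030 with TMM factors, 0.092 with upper-quartile factors and 0.163 without scaling, and relative to it Ppargc1a stood at -0.11 each time.

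With shRNA 1 Ppargc1a rose by 0.26 ± 0.054 log2 units over the 72Q control (19.7%, adjusted p = 0.000207, edgeR), with differences of 0.206 to 0.307 in the 4 experiments. With shRNA 2 it was -0.13 ± 0.055 from the same control, lower in all 4 experiments, but did not pass the threshold (adjusted p = 0.0537), and it did so at -0.16 (adjusted p = 0.0322) when the shRNA 2 library of exp108 was left out. Between the hairpins the difference was 0.39 ± 0.054 (adjusted p = 4.44e-07), 31.2% higher with shRNA 1, and the libraries did not overlap. Twist1 itself was at 1.57 ± 0.452 and 1.64 ± 0.403 CPM (SD, n = 4) in these groups.

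Ppargc1b encodes PGC-1beta, the relative of PGC-1alpha with a more constitutive role in mitochondrial gene expression (ENSMUSG00000033871). Its levels were 10.7, 9.72, 12.9 and 12.1 CPM in 25Q and 13.2, 9.86, 12.6 and 13.6 CPM in the 72Q control group. They were 12.5, 9.87, 12.0 and 13.2 CPM with shRNA 1 and 15.3, 12.3, 14.5 and 15.3 CPM with shRNA 2. All groups overlapped, and within each experiment the shRNA 2 library was the highest of the 4. The difference of 72Q from 25Q was 0.12 ± 0.083 (adjusted p = 0.225), and that of shRNA 1 from the control was -0.053 ± 0.081 (adjusted p = 0.627). Without scaling the former was 0.25 and was called (adjusted p = 0.0104). With shRNA 2 Ppargc1b rose by 0.22 ± 0.078 (16.4%, adjusted p = 0.0239), higher in 4 of 4 experiments. That call was lost in 7 of 23 alternatives, among them the fits without the experiment block (0.22, adjusted p = 0.208) or without the 72Q control library of exp109a (0.20) or exp108 (0.19), or the shRNA 2 library of exp107 (0.20) or exp108 (0.20). Against shRNA 2, shRNA 1 was lower by -0.27 ± 0.079 (adjusted p = 0.00434), with the same sign in every experiment, and the call was lost only without the block (adjusted p = 0.0837).

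Pprc1 encodes PRC, the serum-inducible member of the coactivator family, which works with NRF1 (ENSMUSG00000055491, chr19:46044886-46072915, plus strand). Of the falls with shRNA 1 that passed the threshold, its own was the largest in log2 units. Its promoter is shown for contrast with that of Ppargc1a, since none of the motifs searched (E-box, CRE part, and the NRF1, GABP and ERR motifs spelled out further on) occurs in it, and it therefore has no capitals. The window is chr19:46056289-46056533 of GRCm38.p6, plus strand, bases 250 to 6 before the RefSeq start. That start, at 46056539, lies inside the listed gene, which begins at 46044886, and bases before the listed beginning were not searched. For Ppargc1a the RefSeq start is also where the listed gene begins on its strand.
Pprc1: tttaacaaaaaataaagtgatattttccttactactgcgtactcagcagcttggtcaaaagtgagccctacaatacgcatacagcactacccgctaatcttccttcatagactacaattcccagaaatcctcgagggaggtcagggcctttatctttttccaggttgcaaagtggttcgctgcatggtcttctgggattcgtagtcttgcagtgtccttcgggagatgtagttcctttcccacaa
The absence of these letters from the window says nothing about factors that may act on the gene elsewhere.

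Levels of Pprc1 were 18.0, 13.3, 25.2 and 23.4 CPM in 25Q and 15.2, 16.9, 22.8 and 25.1 CPM in the 72Q control group. They were 12.5, 12.2, 16.0 and 13.3 CPM with shRNA 1 and 18.1, 17.1, 22.0 and 25.1 CPM with shRNA 2. The experiments exp109a and exp109b were the higher ones in every group. The spread was smaller with shRNA 1 (SD 1.72 CPM, against 3.67 to 5.42 CPM in the other groups), at a lower mean. All shRNA 1 libraries lay below every shRNA 2 library. The 72Q control group differed from 25Q by 0.011 ± 0.090 (adjusted p = 0.923), higher in 2 of 4 experiments. With shRNA 1 Pprc1 fell by 0.55 ± 0.094 log2 units (31.7%, adjusted p = 1.67e-05), with 4 of 4 experiments lower, from -0.291 in exp107 to -0.913 in exp109b. With shRNA 2 it was 0.042 ± 0.088 from the control (95% interval -0.139 to 0.222, adjusted p = 0.744), and shRNA 1 was lower than shRNA 2 by -0.59 ± 0.093 (adjusted p = 3.91e-06). The fall held under all 23 alternatives, between -0.61 and -0.45. Pprc1, with a listed length of 7516 bases, shares 177 exonic bases with Ldb1 on the other strand. No source used here states whether counting was by strand, so reads in the shared bases cannot be told apart.

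**Figure D3:**
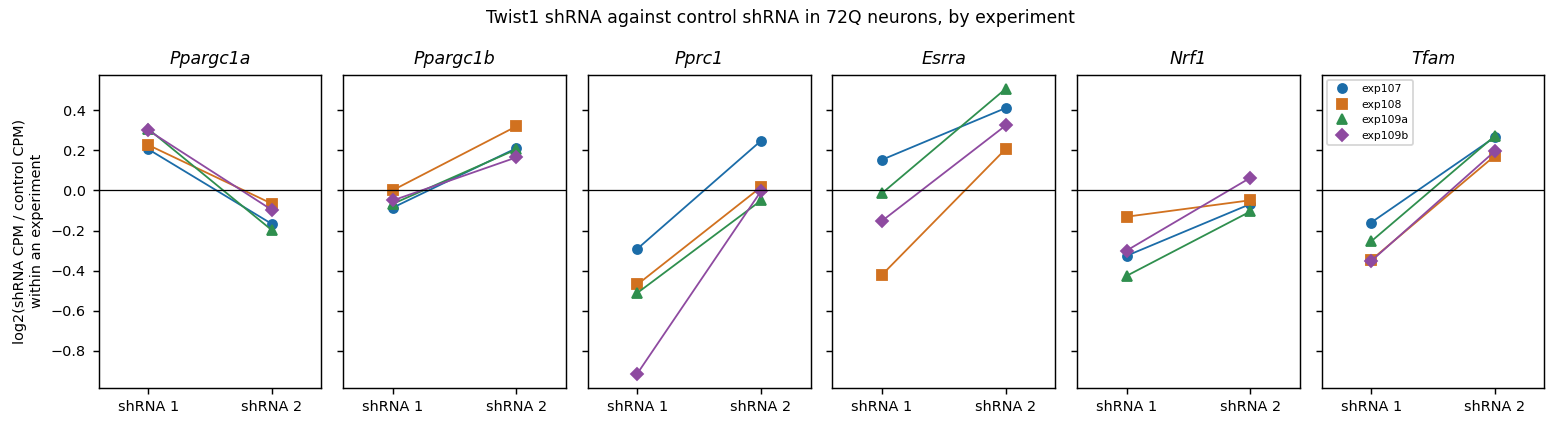
Log2 ratio of TMM-scaled CPM with a Twist1 shRNA over the control shRNA in 72Q neurons (y axis) for shRNA 1 and shRNA 2 (x axis), with 1 line per experiment and 1 panel per regulator. Lines for Ppargc1a slope down in all 4 experiments, from above 0 to below 0, and those of Tfam slope up, from below 0 to above 0.

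Esrra encodes the orphan receptor ERRalpha, the main partner of PGC-1alpha on respiratory chain genes (ENSMUSG00000024955, chr19:6910977-6921813, minus strand). Its promoter window, chr19:6921814-6922058 of GRCm38.p6 on the minus strand, is shown because it is 1 of 2 regulators' promoters with the NRF1 core (GCGCNTGCG, on the opposite strand here), beside an E-box, both in capitals.
Esrra: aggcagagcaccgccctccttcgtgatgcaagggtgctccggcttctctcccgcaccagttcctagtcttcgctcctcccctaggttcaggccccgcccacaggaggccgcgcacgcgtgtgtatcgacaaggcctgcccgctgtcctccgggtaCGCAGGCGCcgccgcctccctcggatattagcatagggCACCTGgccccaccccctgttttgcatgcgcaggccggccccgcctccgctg
This core occurs in 5.19% of all promoter windows.

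Esrra stood at 23.4, 32.0, 26.6 and 26.7 CPM in 25Q and at 20.7, 30.8, 24.0 and 27.7 CPM in the 72Q control group. With shRNA 1 it was at 23.0, 23.0, 23.7 and 24.9 CPM, and with shRNA 2 at 27.6, 35.5, 34.1 and 34.7 CPM. All shRNA 2 libraries lay above all shRNA 1 libraries, which were also the closest to each other (SD 0.918 CPM, against 3.58 to 4.37 CPM in the other groups). Between 72Q and 25Q the difference was -0.078 ± 0.073 (adjusted p = 0.373), and it was 0.057 without scaling. With shRNA 2 Esrra rose by 0.36 ± 0.070 (28.0%, adjusted p = 0.000127), higher in 4 of 4 experiments, which held under all 23 alternatives (0.32 to 0.43). With shRNA 1 it was -0.12 ± 0.073 from the control (adjusted p = 0.194), and shRNA 1 was lower than shRNA 2 by -0.47 ± 0.071 (adjusted p = 1.66e-06). Esrra, with a listed length of 2539 bases, shares 73 exonic bases with Trmt112 on the other strand and 91 with the microRNA gene Mir6990 on its own strand. Reads in those shared bases cannot be told apart in these counts.

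Nrf1 encodes nuclear respiratory factor 1, which binds promoters of respiratory chain genes and of Tfam (ENSMUSG00000058440, chr6:30047988-30153458, plus strand). Its levels were 25.7, 24.4, 24.8 and 24.3 CPM in 25Q and 25.8, 26.2, 26.8 and 25.2 CPM in the 72Q control group. They were 20.6, 23.9, 19.9 and 20.5 CPM with shRNA 1 and 24.6, 25.3, 24.9 and 26.3 CPM with shRNA 2. Every shRNA 1 library was below every library of the other groups, with exp108 the nearest to them, and the other groups lay within a few CPM of each other. Nrf1 fell by 0.29 ± 0.065 with shRNA 1 (18.2%, adjusted p = 0.000497), and the fall held under all 23 alternatives (-0.35 to -0.25). It was -0.039 ± 0.063 from the control with shRNA 2 (95% interval -0.169 to 0.091, adjusted p = 0.662) and 0.067 ± 0.065 from 25Q in the 72Q control group (adjusted p = 0.385). Without scaling the latter was 0.20 and was called (adjusted p = 0.00815), while relative to the median of all genes it was 0.04 with either scaling. Between shRNA 1 and shRNA 2 the difference was -0.25 ± 0.065 (adjusted p = 0.00171).

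Ppara encodes PPARalpha, the fatty acid receptor that drives fatty acid oxidation (ENSMUSG00000022383, chr15:85734983-85802819, plus strand). It was at 0.985, 1.59, 1.59 and 1.84 CPM in 25Q and at 1.4, 1.93, 1.81 and 1.86 CPM in the 72Q control group. With shRNA 1 the values were 1.18, 1.33, 1.3 and 0.936 CPM, and with shRNA 2 they were 1.4, 1.31, 2.05 and 1.64 CPM. The shRNA 1 libraries lay below all 72Q control libraries, at 15 to 26 counts each. Ppara fell by 0.51 ± 0.22 with shRNA 1 (29.8%, 95% interval -0.951 to -0.072, adjusted p = 0.037), lower in 4 of 4 experiments. At this depth the call was fragile. It was lost in 9 of 23 alternatives, with DESeq2 (adjusted p = 0.0978), without the block (adjusted p = 0.0663) and on leaving out any of 5 single libraries. These were the 72Q control libraries of exp107 (-0.52), exp108 (-0.46) and exp109b (-0.49) and the shRNA 1 libraries of exp109a (-0.49) and exp109b (-0.38). Ppara was 0.21 ± 0.21 from 25Q in the 72Q control group (adjusted p = 0.368) and -0.12 ± 0.20 from the control with shRNA 2 (adjusted p = 0.664).

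Tfam encodes the packaging and transcription factor of mitochondrial DNA (ENSMUSG00000003923, chr10:71225464-71238280, minus strand). It passed the threshold in 5 of the 6 comparisons made, more than any other regulator. A known feature of its promoter is a site for the ETS factor GABP (NRF2), and the letters CCGGAAG, in capitals, occur in chr10:71238074-71238103 (GRCm38.p6, minus strand, 59 to 30 bases before the RefSeq start).
Tfam: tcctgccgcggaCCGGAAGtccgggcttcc
The same letters occur, on the opposite strand, before the start of Polrmt, and in 6.91% of all promoter windows.

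Levels of Tfam were 32.0, 32.2, 32.0 and 33.4 CPM in 25Q and 34.8, 36.8, 37.2 and 38.6 CPM in the 72Q control group. They were 31.2, 29.0, 31.2 and 30.3 CPM with shRNA 1 and 41.9, 41.5, 44.9 and 44.2 CPM with shRNA 2. No group overlapped any other, and the order was shRNA 1, 25Q, 72Q control and shRNA 2. Tfam rose by 0.19 ± 0.055 in 72Q over 25Q (13.8%, adjusted p = 0.00443). It fell by 0.28 ± 0.055 with shRNA 1 (17.5%, adjusted p = 9.74e-05) and rose by 0.23 ± 0.053 with shRNA 2 (16.9%, adjusted p = 0.00081), each with the same sign in 4 of 4 experiments. Between shRNA 1 and shRNA 2 the difference was -0.50 ± 0.054 (adjusted p = 3.25e-09). All of these calls held under the 23 alternatives.

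Tfb1m and Tfb2m encode related methyltransferase-like proteins, of which TFB2M opens mitochondrial promoters and TFB1M modifies mitochondrial ribosomal RNA (ENSMUSG00000036983, chr17:3519263-3557713, and ENSMUSG00000026492, chr1:179528055-179546267, both minus strand). They were low, at 2.32 to 4.93 CPM (38 to 93 counts) and 2.43 to 4.54 CPM (43 to 83 counts), and the groups overlapped for both genes. Neither passed the threshold between 72Q and 25Q with the control shRNA or with either hairpin against the 72Q control. The nearest was Tfb1m with shRNA 2, at 0.34 ± 0.16 (adjusted p = 0.083) and higher in 4 of 4 experiments. It was called in 3 of 23 alternatives, at 0.41 without scaling (adjusted p = 0.033), 0.48 without the 72Q control library of exp108 (adjusted p = 0.0232) and 0.45 without the shRNA 2 library of exp109a (adjusted p = 0.0356), and it was 0.19 without the 72Q control library of exp107 (adjusted p = 0.374). Tfb2m was at 0.30 ± 0.16 with shRNA 1 (adjusted p = 0.123), and at 0.46 with an adjusted p of 0.0276 without the shRNA 1 library of exp108. Their 95% intervals for 72Q against 25Q, -0.267 to 0.442 and -0.494 to 0.2, were wider than those of the abundant regulators. Tfb1m shares 142 exonic bases with Tiam2 on the other strand.

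Polrmt encodes the RNA polymerase of mitochondria (ENSMUSG00000020329, chr10:79736123-79746581, minus strand). It was at 28.7, 35.7, 33.9 and 32.2 CPM in 25Q and at 25.4, 32.2, 27.8 and 27.9 CPM in the 72Q control group. The values were 27.9, 32.6, 28.0 and 31.1 CPM with shRNA 1 and 29.5, 35.1, 31.7 and 29.3 CPM with shRNA 2. All groups overlapped, but in each experiment the 72Q control library was the lowest of the 4. Polrmt fell by 0.20 ± 0.059 in 72Q against 25Q (13.2%, adjusted p = 0.00421), with differences of -0.287 to -0.151 in the 4 experiments. It was not called in the fit without a block (adjusted p = 0.0752) and without scaling beyond library totals (-0.069, adjusted p = 0.334), where relative to the median of all genes it stood at -0.23 as it did with TMM factors. With shRNA 2 Polrmt rose by 0.15 ± 0.059 (11.0%, adjusted p = 0.0387), but 11 of 23 alternatives ended that call, including DESeq2 (adjusted p = 0.054) and leaving out any of 7 libraries, with values from 0.13 to 0.17. These were all 4 libraries of the 72Q control group and the shRNA 2 libraries of exp107, exp108 and exp109a. With shRNA 1 it was 0.078 ± 0.060 from the control (adjusted p = 0.297).

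Against the 25Q control group, 72Q neurons with Twist1 knockdown were compared to see which regulators lay off the wild-type level. With shRNA 1, 1 was higher (Ppargc1a) and 3 were lower (Pprc1, Esrra and Nrf1), where 28.1% of all genes were higher and 29.4% lower. With shRNA 2, 4 were higher (Ppargc1b, Esrra, Tfam and Tfb1m) and 1 was lower (Ppargc1a), where 31.4% of all genes were higher and 31.8% lower. The libraries did not overlap with those of 25Q for 2 of the 10 with shRNA 1 (40.1% of all genes) and for 1 of the 10 with shRNA 2 (43.4%). These comparisons share the 25Q libraries with each other. Without scaling, 7 were higher than 25Q with shRNA 2 and 0 lower, since Pprc1 (0.26, adjusted p = 0.0088), Nrf1 (0.24, adjusted p = 0.00181) and Polrmt (0.16, adjusted p = 0.0237) were then called. The median of all genes was then 0.220, so these counts move with a shift of all genes. Pprc1 fell by 0.54 ± 0.095 below 25Q with shRNA 1 (adjusted p = 1.67e-05), and Tfam rose by 0.41 ± 0.054 above it with shRNA 2 (33.1%, adjusted p = 8.35e-08), both under all 23 alternatives. Also under all of them, shRNA 2 left Ppargc1b 0.34 ± 0.080 (adjusted p = 0.000514) and Esrra 0.28 ± 0.070 (adjusted p = 0.00101) above 25Q. Tfam with shRNA 1 was -0.092 ± 0.056 from 25Q (95% interval -0.206 to 0.022, adjusted p = 0.16), although its libraries did not overlap with those of 25Q.

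Ppargc1a was 0.18 ± 0.054 above 25Q with shRNA 1 (adjusted p = 0.00576) and stood at -0.21 ± 0.055 from it with shRNA 2 (adjusted p = 0.00127). The first was lost without the block (adjusted p = 0.0723). The second was lost with upper-quartile factors (-0.11, adjusted p = 0.0755) and without scaling (-0.003), a setting that moves the median of all genes from 0.014 to 0.220 in that comparison, and relative to the median it was -0.22 to -0.23 in each. The 3 other calls were also lost in part. Nrf1 with shRNA 1 (-0.22 ± 0.066, adjusted p = 0.00496) was not called with upper-quartile factors (-0.14) or without scaling (-0.096). Esrra with shRNA 1 (-0.20 ± 0.073, adjusted p = 0.0237) was lost in 6 alternatives, among them those without the 25Q (-0.15) or the shRNA 1 (-0.11) library of exp108. Tfb1m with shRNA 2 (0.42 ± 0.16, adjusted p = 0.0215) was lost in 6, among them those without the 25Q library of exp109b (0.37) or exp108 (0.38) or the shRNA 2 library of exp109b (0.36) or exp107 (0.40).

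Motifs were searched on both strands in the 250 bases before the RefSeq starts, in 10 windows of 9 regulators. E-boxes (CANNTG) occurred in 6 of these genes, against 66.2% of all promoter windows. The NRF1 core GCGCNTGCG occurred in Esrra and Ppara, and the stricter GCGCATGCG in Ppara alone, against 5.19% of windows for the first and 476 of 32851 for the second. The CRE part TGACG occurred in Ppargc1a, Tfb1m and Ppara, against 17.8% of windows, and can overlap the full CRE TGACGTCA (1.55% of windows), which none of them held. GABP letters (CCGGAAG) occurred in Tfam and Polrmt. The ERR motif AAGGTCA (4.08%), the E-box variant CATATG (3.46%), which CANNTG includes, and the MEF2 core TATTTATAG (0.408%) occurred in none. Pprc1, Tfb2m and the first of the Nrf1 starts held none of the motifs searched.

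**Figure D4:**
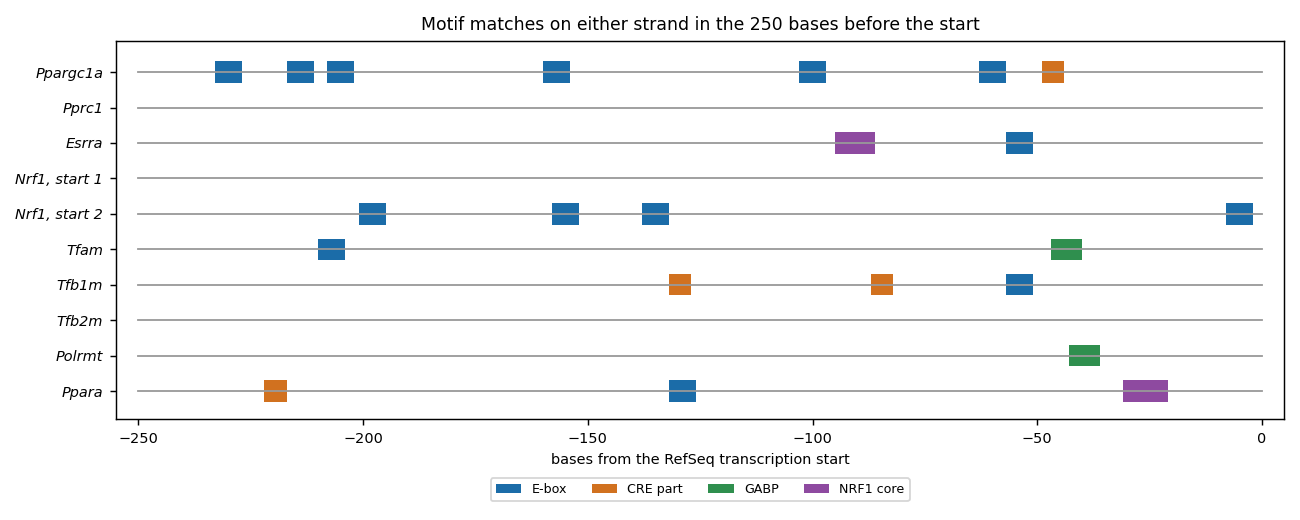
Positions of motif matches on either strand (coloured bars) in the 250 bases before each RefSeq start (x axis, bases from the start) for 9 regulators (y axis), with Nrf1 shown for both of its starts. Ppargc1a carries 6 E-boxes, and no match lies in Pprc1, Tfb2m or the first Nrf1 window.

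Genes known to lie upstream of PGC-1, to work with it or to follow it were then described by list, with genes named by a fixed rule on 72Q against 25Q. Shares of called genes are read beside those of all tested genes given above. For counts in other settings no such shares are given. Without scaling the median of all genes was 0.163 in 72Q, -0.013 with shRNA 1 and 0.075 with shRNA 2. For the hairpins, a value of a named gene is given only where it was called under all 23 alternatives, a limit chosen after the values were seen and not applied to the PGC-1alpha-dependent genes, of which every call is given. Among upstream regulators and modifiers of PGC-1, 6 of 19 measured genes rose in 72Q and 8 fell. Fbxw7, the ubiquitin ligase subunit that marks PGC-1alpha for degradation, fell by 1.81 ± 0.054 log2 units, from 432 to 124 CPM on average (adjusted p = 1.46e-20), and Nrip1, the corepressor RIP140 that opposes PGC-1alpha, fell by 1.33 ± 0.064, from 170 to 68.6 CPM. Crtc2, a CREB coactivator, rose by 0.46 ± 0.077 and Tfeb, a lysosomal transcription factor that can induce Ppargc1a, rose by 0.51 ± 0.14. Ppargc1a itself was not called in this comparison, as given above. With shRNA 1, 5 genes of the list rose and 5 fell, among them Fbxw7 at -0.35 ± 0.055, and 2 rose and 3 fell without the block. With shRNA 2, 1 rose and 9 fell, or 3 and 4 without scaling and 0 and 4 without the block. Without scaling, 8 rose and 5 fell in 72Q.

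Among partner receptors and nuclear respiratory factors, 6 of 20 measured genes rose in 72Q and 4 fell. Rxra, the retinoid receptor that pairs with PPARs, rose by 0.47 ± 0.062 and the fatty acid receptor gene Ppard by 0.44 ± 0.073, while the thyroid receptor gene Thrb fell by 0.965 ± 0.077 and Nr4a1, an activity-induced orphan receptor gene, fell by 0.52 ± 0.10. With shRNA 1, 4 rose, Nr4a1 by 0.37 ± 0.11, and 4 fell. With shRNA 2, 4 rose and 8 fell, among them Ppard at -0.32 ± 0.071, and 4 rose and 4 fell without scaling. In 72Q 9 rose and 3 fell without scaling. Without the block 3 rose and 3 fell in 72Q, 3 and 0 with shRNA 1, and 3 and 4 with shRNA 2. Of mitochondrial DNA replication and nucleoid genes, 7 of 19 rose in 72Q and 7 fell, or 10 and 4 without scaling. The polymerase subunit gene Polg2 rose by 0.66 ± 0.14 and the protease subunit gene Clpx by 0.58 ± 0.076, and the mitochondrial topoisomerase gene Top1mt fell by 0.66 ± 0.11 and the primase gene Primpol by 0.55 ± 0.16. Of mitochondrial transcription and RNA processing genes, 4 of 19 rose and 3 fell, or 7 and 2 without scaling and 2 and 2 without the block. Mterf4, a ribosome assembly factor gene, rose by 0.53 ± 0.086. The RNA stability partners Slirp and Lrpprc went apart, Slirp rising by 0.30 ± 0.095 (not called without the block, adjusted p = 0.0525) and Lrpprc, from 120 to 87.6 CPM, at -0.45 ± 0.048, and the RNA helicase gene Supv3l1 fell by 0.38 ± 0.073. Like the 10 regulators, these lists held genes that moved in both directions.

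Nuclear genes for the respiratory chain and ATP synthase, the classical targets of the PGC-1 programme, were called in 24 of 75 cases in 72Q, with 14 higher and 10 lower and a median of 0.015 log2 units. This count rests on the scaling, as 30 rose and 9 fell with upper-quartile factors and 43 rose and 1 fell without scaling, and on the block, without which 4 rose and 3 fell. Without scaling the list median was 0.150, where that of all genes was 0.163. Atp5g1, an ATP synthase subunit gene, rose by 0.46 ± 0.075 and the complex III gene Uqcrb by 0.32 ± 0.082, and Cyc1, encoding cytochrome c1, fell by 0.31 ± 0.050. Ndufb2, a complex I gene, fell by 0.29 ± 0.094 (adjusted p = 0.00829), but not without the block (adjusted p = 0.167) or without scaling (-0.16). With shRNA 1, 28 rose and 4 fell (median 0.073), and with shRNA 2, 22 rose and 4 fell (median 0.067). These were differences of a few percent. Most of the calls were lost without the block. There 6 rose and 0 fell with shRNA 1, and 1 rose and 1 fell with shRNA 2. With shRNA 2, 37 rose and 2 fell without scaling (median 0.141, against 0.075 for all genes). The list medians without the block were 0.078 with shRNA 1 and 0.074 with shRNA 2, so the small rises stayed while most calls did not. Between the hairpins 15 genes of the list were higher and 14 lower with shRNA 1 (median 0.029). Ppargc1a, Esrra and Tfam differed between the hairpins, and a link of these regulators to the list was not tested.

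**Figure D5:**
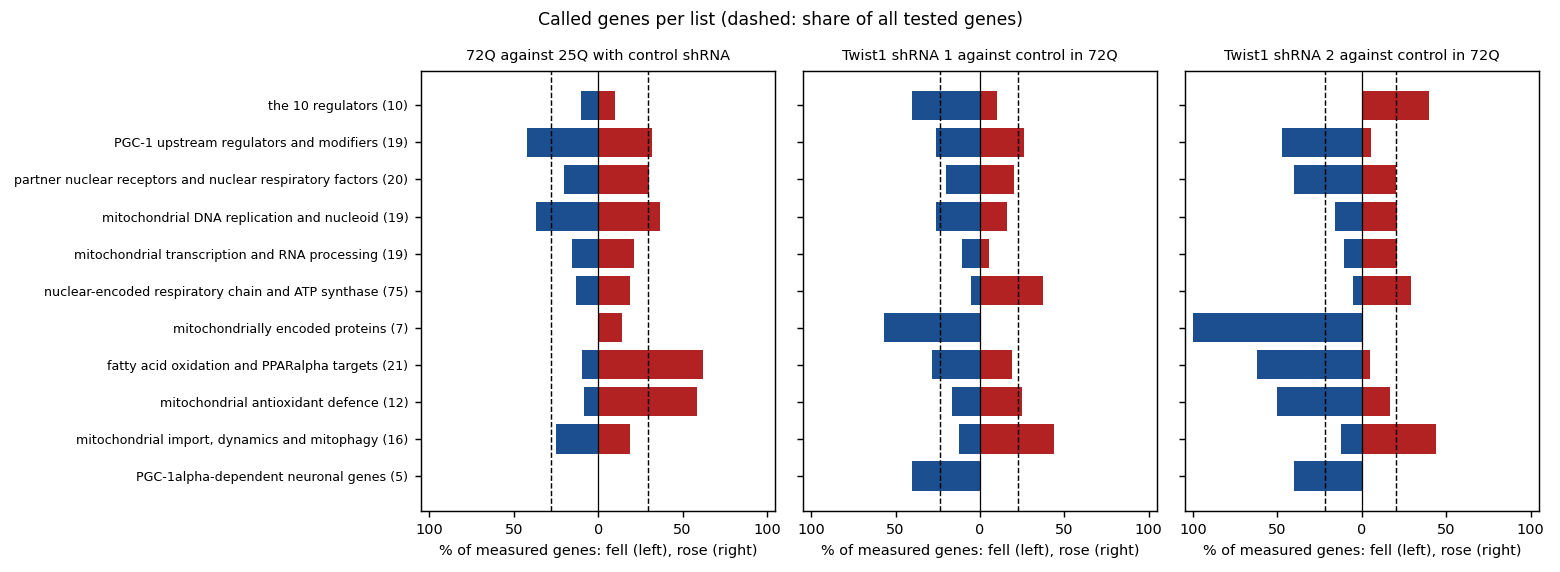
Percent of the measured genes of each list (y axis, number measured in parentheses) that rose (red, to the right) or fell (blue, to the left) in 3 comparisons, with dashed lines at the shares of all tested genes. Bars of fatty acid oxidation and antioxidant genes pass the dashed line to the right in 72Q and to the left with shRNA 2. Those of upstream regulators and of partner receptors do so too, though barely to the right in 72Q. The 10 regulators do not reach either line in 72Q.

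Transcripts of the mitochondrial genome, which the products of Tfam, Tfb2m and Polrmt transcribe, made up 2.41 to 2.78% of counts in 25Q and 3.16 to 3.59% in the 72Q control group, against 2.39 to 3.26% with shRNA 1 and 2.1 to 2.78% with shRNA 2. Of the 13 protein genes of that genome, 7 could be tested, and 5 of the others were listed at 0 in every library. In 72Q 1 of these rose, mt-Nd6 by 0.26 ± 0.097 (adjusted p = 0.0361), a complex I gene on the light strand, and this call was lost without the block (adjusted p = 0.051) and on leaving out any of 8 libraries (0.23 to 0.28). These were the 4 libraries of 25Q, the 72Q control libraries of exp107, exp108 and exp109a and the shRNA 1 library of exp107. Without scaling 6 of the 7 rose in 72Q, at a median of 0.271, where that of all genes was 0.163. With shRNA 1, 4 of 7 fell and 0 rose, and with shRNA 2 all 7 fell, with a median of -0.57, mt-Nd6 at -0.55 ± 0.098 (adjusted p = 0.000584). The fall with shRNA 2 stood beside a rise of Tfam and Polrmt in the same libraries, and the fall with shRNA 1 beside a fall of Tfam.

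Fatty acid oxidation genes and other PPARalpha targets were mostly higher in 72Q, where 13 of 21 measured genes (of 26 listed) rose and 2 fell, at a median of 0.23. The carnitine carrier gene Slc25a20 rose by 0.70 ± 0.078, from 13.3 to 21.6 CPM, and Angptl4, an inhibitor of lipoprotein lipase and PPAR target, by 1.05 ± 0.14, though not without the block (0.98, adjusted p = 0.292). The peroxisomal thiolase gene Acaa1a fell by 0.41 ± 0.081 and the neuronal carnitine palmitoyltransferase gene Cpt1c by 0.25 ± 0.046. With shRNA 2, 13 fell and 1 rose (median -0.31), and with shRNA 1, 6 fell and 4 rose (median -0.04). Slc25a20 fell by 0.69 ± 0.078 with shRNA 1 and by 0.33 ± 0.074 with shRNA 2, whereas Cpt1c rose by 0.56 ± 0.045 and 0.60 ± 0.045. Without the block, 8 rose and 2 fell in 72Q, 8 fell and 1 rose with shRNA 2, and 3 rose and 1 fell with shRNA 1. Of the 6 dividing progenitor markers 4 rose and 0 fell in 72Q (median 0.239), and 5 fell and 0 rose with shRNA 2 (median -0.342). Without the block 1 of them rose in 72Q and 2 fell with shRNA 2. Of the 8 astrocyte markers 4 rose and 0 fell in 72Q (median 0.160), or 1 and 0 without the block. With shRNA 2, 5 of them fell and 0 rose (median -0.164), or 3 and 0 without the block. Of the 8 oligodendrocyte-lineage markers 2 rose and 2 fell in 72Q, and 6 fell and 0 rose with shRNA 2. The part of these cell types in the changes of this list and of the antioxidant genes was not tested. Ppara itself was not called in 72Q or with shRNA 2.

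Of mitochondrial and related antioxidant genes, 7 of 12 measured genes rose in 72Q and 1 fell (median 0.235). Gsr, the glutathione reductase gene, rose by 0.81 ± 0.053, from 46.2 to 81.0 CPM, and Sod2, the superoxide dismutase of the matrix, by 0.52 ± 0.046, while the catalase gene Cat fell by 0.28 ± 0.053. With shRNA 2, 6 fell and 2 rose, among them Gsr at -0.37 ± 0.052 and Cat at -0.33 ± 0.053, and with shRNA 1, 3 rose, among them Cat by 0.49 ± 0.053, and 2 fell. Without the block 4 fell and 0 rose with shRNA 2, and 2 fell and 1 rose with shRNA 1. Of import, dynamics and mitophagy genes, 3 of 16 rose in 72Q and 4 fell, or 7 and 1 without scaling and 2 and 2 without the block. Dnm1l, the mitochondrial fission dynamin, rose by 0.27 ± 0.044 in 72Q and fell by 1.00 ± 0.044 with shRNA 1, from 302 to 151 CPM, with no overlap of the libraries. The chaperonin gene Hspd1 rose by 0.23 ± 0.044. Bnip3, a mitophagy receptor gene, fell by 0.17 ± 0.064 (adjusted p = 0.0212), a call lost without the block, with upper-quartile factors (-0.11), without scaling (-0.039) and without the 25Q library of exp107 (-0.15) or exp108 (-0.10) or the exp107 (-0.15) or exp108 (-0.17) library of the 72Q control group. With shRNA 2 it rose by 0.54 ± 0.062, from 53.0 to 77.0 CPM. With each hairpin 7 genes of this list rose and 2 fell, against 1 and 1 for shRNA 1 and 4 and 0 for shRNA 2 without the block.

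Genes that depend on PGC-1alpha in neurons of the brain (Pvalb, Syt2, Cplx1, Nefh and Inpp5j) did not pass the threshold in 72Q, where 0 of 5 were called by edgeR or DESeq2 and 0 had an unadjusted p under the threshold. Without scaling 3 of them were called higher (Syt2, Cplx1 and Inpp5j), and Inpp5j also with upper-quartile factors (0.17, adjusted p = 0.0373). Leaving out 1 library of 25Q called Syt2 higher (0.21, adjusted p = 0.0407, without exp108) or Nefh lower (-0.24, adjusted p = 0.0367, without exp109b). Their values were 0.10 ± 0.39, 0.10 ± 0.097, -0.014 ± 0.043, -0.16 ± 0.091 and 0.11 ± 0.071 log2 units in the order named, and Pvalb, the calcium buffer of fast-spiking interneurons, was barely present at 0.431 CPM in 25Q and 0.469 in the 72Q control group. With shRNA 1, 2 of the 5 fell and 0 rose. The vesicle sensor gene Syt2 fell by 1.13 ± 0.10 (from 31.8 to 14.6 CPM, adjusted p = 2.01e-08), where Ppargc1a rose, and the neurofilament gene Nefh fell by 0.40 ± 0.094 (adjusted p = 0.000911), though not without the block (adjusted p = 0.127). With shRNA 2, 2 fell and 0 rose. The complexin gene Cplx1 fell by 1.11 ± 0.044 (from 528 to 244 CPM, adjusted p = 3.82e-18), where Ppargc1a was -0.13 from the control. Syt2 fell by 0.47 ± 0.098 (adjusted p = 0.000547), again not without the block (adjusted p = 0.136).

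The genes whose log2(CPM + 1) followed that of Ppargc1a most closely over the 16 libraries, among 13521 genes compared, were Kif1a (Pearson's r = 0.953), Pxmp4 (0.95), Kif1b (0.945), Mast4 (0.932) and Dpp6 (0.931). Kif1a and Kif1b encode kinesin motors of axonal transport, and Kif1a stood at 3070, 3000, 3480 and 2560 CPM in 25Q, the 72Q control group, shRNA 1 and shRNA 2. These libraries share groups and experiments, so the likeness is a description with no test. For Ppara the closest were Tdrd7 (0.799), Nr6a1 (0.797), Mcm5 (0.795), Prkrip1 (0.794) and Fgfr1op (0.787), values that are limited by its few counts.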

How the data were processed

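RNA-seq was available for 16 libraries, 4 in each of 4 groups taken from the sample titles. The submitters' processing notes name STAR 2.0.4b, featureCounts 1.45 (Subread) and the build GRCm38. As to strand, multi-mapping reads and the annotation release, details were not given in the sources used here. The authors deposited raw counts per Ensembl gene, and these counts entered every test. CPM deposited by the authors equalled counts over library totals, and RPKM deposited by the authors equalled that CPM per kilobase of listed length. CPM and RPKM printed here were recomputed with TMM factors. Symbols came from GENCODE M21 (40254 of 41388 identifiers, 97.26%), and promoters from RefSeq on GRCm38.p6.

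Low genes were removed with filterByExpr, leaving 15103. The quasi-likelihood test of edgeR 4.0.16 (R 4.3.3; TMM factors, robust glmQLFit, glmQLFTest) used all 16 libraries, with terms for group and for experiment, and p-values were adjusted by Benjamini-Hochberg over all genes tested, with a threshold of 0.05. Fold changes (log2, prior count 2) carry their SE, and 95% intervals where given. The common biological coefficient of variation was 5.24%. The pairing comes from the experiment labels, which put 1 library of each group in each experiment. Deviations from group means correlated across genes at 0.223 to 0.612 for all 24 pairs of libraries of the same experiment, with a median of 0.423, against -0.333 to 0.278 with a median of -0.168 for the 72 pairs of different experiments. The replicate number in the titles was not used for pairing, because in 25Q it does not follow the experiment. Totals of 15814525 to 19533034 counts bound the precision of genes such as Ppara, with 15 to 43 counts, and errors cover these samples only.

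Alternatives were no block, a block by title number, upper-quartile factors, no scaling beyond library totals, DESeq2 1.42.0, no filter on low counts, only the groups compared, and leaving out each library in turn, 23 in all. Members and lists were chosen with earlier results of these data known, so lists carry counts and medians and no test of their own. All members were named. Of each pathway list, the named genes were the 2 highest and 2 lowest log2 fold changes of 72Q against 25Q among called genes with a mean of at least 1 CPM and the same sign in all 4 experiments. All genes of the PGC-1alpha-dependent neuronal list were named. Likeness was ranked by Pearson correlation of log2(CPM + 1) among genes with a mean of at least 1 CPM. Prmt1 and Prorp were listed but matched no identifier and were not analysed here. The promoter of Ppargc1b was not analysed here. A gene that the naming rule picks is not reported here.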

Additional observations from a re-analysis of the deposited data

Results flagged for a closer look

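In 3 of 40 sets of 4 libraries (10 regulators in 4 groups), 1 library stood apart from the other 3 by Dixon's criterion, which chance meets in about 1 in 20 sets. The shRNA 1 library of exp108 was apart for Ppargc1a, at 39.7 CPM against 45.8 to 46.8 in the others, and for Nrf1, at 23.9 CPM against 19.9 to 20.6. In both genes it lay on the side of the 72Q control group, and calls of both with shRNA 1 held without it. For Tfam the 25Q library of exp109b was apart at 33.4 CPM, against 32.0 to 32.2 in the others.

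For 6 regulators the effects of the hairpins in 72Q neurons differed from each other, by the test of shRNA 1 against shRNA 2 (edgeR, adjusted p of 0.00434 or less). In that test 27.3% of all genes were higher and 25.9% lower, so 6 of 10 is near what these shares give. The effect of shRNA 1 minus that of shRNA 2 was 0.392 log2 units for Ppargc1a, -0.272 for Ppargc1b, -0.591 for Pprc1, -0.473 for Esrra, -0.25 for Nrf1 and -0.504 for Tfam, with the same sign in 4 of 4 experiments for each.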

How the results depend on the processing

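The number of regulators called was 2 for 72Q against 25Q, and it was 1 with no replicate block 3 without scaling (3 higher, 0 lower) and 2 whichever library was left out. For shRNA 1 against the control it was 5, and 4 with no replicate block and 4 to 6 with a library left out. For shRNA 2 against the control it was 4, and 2 with no replicate block, with a block by title number and with no filter on low counts, and 2 to 4 with a library left out (2 without the 72Q control library of exp109a or the shRNA 2 library of exp107). For shRNA 1 against 25Q it was 4, and 2 with no replicate block, with a block by title number, with upper-quartile factors and without scaling, and 3 to 5 with a library left out. It was 6 for shRNA 1 against shRNA 2 (5 with no replicate block, 8 without scaling, 6 to 7 with a library left out) and 5 for shRNA 2 against 25Q (4 with no replicate block, 7 without scaling, all higher, and 4 to 5 with a library left out). Without scaling the sign turned for Ppargc1a (0.054) and Esrra (0.057) in 72Q against 25Q, for Nrf1 with shRNA 2 against the control (0.036), for Tfam (0.035) and Polrmt (0.001) with shRNA 1 against 25Q, for Polrmt with shRNA 2 against 25Q (0.156, adjusted p = 0.0237, and 0.047 with upper-quartile factors) and for Cplx1 in 72Q against 25Q (0.121, and 0.049 with upper-quartile factors). None of these was called with TMM factors, and the scaling moves all genes together. On leaving out a library the sign of uncalled values turned in 72Q against 25Q for Pprc1 (-0.087 to 0.075), Tfb1m (-0.057 to 0.230) and Pvalb (-0.138 to 0.303), with shRNA 2 against the control for Pprc1 (-0.023 to 0.113) and Ppara (-0.207 to 0.001), and with shRNA 2 against 25Q for Pprc1 (-0.045 to 0.119), Nrf1 (-0.003 to 0.051), Tfb2m (-0.053 to 0.136) and Ppara (-0.006 to 0.213). No called value of a member changed sign in the 23 alternatives. Depth limits Ppara, Tfb1m and Tfb2m, whose intervals were the widest.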
